A study of Mus musculus with 2 samples.

Results

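The contractile programme of smooth muscle was followed in mouse carotid arteries after injury as 33 genes chosen by symbol from the 32285 genes listed in the files. They are Acta2, Actg2, Tagln, Cnn1, Smtn, Lmod1, Tpm1, Tpm2 and Cald1 of the actins and thin filament, Myh11, Myl9 and Mylk of the myosin motor and its kinase, the coactivator Myocd, the dense body and LIM-domain genes Synpo2, Flna, Actn1, Csrp1, Ldb3, Pdlim3, Pdlim7, Sorbs2 and Myom1, the intermediate filament genes Des and Synm, the membrane, adhesion and matrix genes Itga8, Npnt, Dmd, Thsd4 and Ctnna3, and the calcium and excitability genes Pln, Kcnmb1, Casq2 and Cacna1c. All 33 were found in the files, 1 of them (Casq2) with almost no counts.

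Vascular smooth muscle cells form the media of the artery and set its diameter. Calcium enters through voltage-gated channels, binds calmodulin and activates myosin light chain kinase, and the phosphorylated myosin then pulls on actin filaments that are anchored in dense bodies and at the membrane. Many of the genes are switched on together by serum response factor with its coactivator myocardin, through a DNA element called the CArG box, and smooth muscle cells can lose them after injury while they gain matrix and migration genes.

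The study profiled single cells of carotid arteries taken 18 h after injury of the endothelium by temporary ligation, with 1 droplet 3′ library per group. The control group was CDH5 Cre- Cx43fl/fl and the knockout group (EC-Cx43-KO) was CDH5 Cre+ Cx43fl/fl. Both carry floxed alleles of Gja1, the gene of connexin 43, and the Cre is described as inducible and endothelial, so smooth muscle is not its target. The inducing agent, the age and the strain are not given in the labels. Per the labels' protocol, injured carotids of a condition were combined, although the design text speaks of a control mouse, and the number of animals per library is not given. The carotids were opened lengthwise and digested briefly to enrich endothelial cells, and the cells were frozen in DMSO. With 1 library per group no test between groups is possible, and no p-value is given: intervals below are exact 95% intervals that cover counting error only.

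The deposited matrices held 7298 barcodes with 48862850 UMIs (unique molecular identifiers, each marking 1 captured RNA molecule) in the control and 8315 barcodes with 54392831 UMIs in the knockout library. Of these barcodes 6376 and 7236 were kept, and 17 barcode sequences occurred in both libraries, none of them in a smooth muscle-like cell. Gja1 in endothelial-like (EC-like) cells stood at 14.1 CPM (UMIs of a gene divided by all UMIs of the class, times 1e6, with an interval of 10.4 to 18.9, 46 UMIs) in the control and at 26.5 CPM (21.4 to 32.4, 94 UMIs) in the knockout library, which goes against the label of the latter. The EC-like cells compared also differ in make-up: a cluster led by Gpihbp1 and Rbp7 gave 7 of 358 control and 57 of 445 other cells. A further cluster with endothelial markers, 120 and 132 cells, was left out of the class. The part of this difference in the Gja1 levels was not tested. The labels do not say which part of Gja1 is floxed, and 3′ counts of sequence that the deletion leaves in place would not show it. The second library is therefore called the library labelled knockout, and each direction below is between libraries as labelled. Smooth muscle-like cells of both libraries held UMIs of Xist (381 CPM in the control, 286 in the library labelled knockout) and of the Y-linked Ddx3y (51.0 and 76.1 CPM), so each library holds RNA of both sexes.

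Smooth muscle-like (SMC-like) cells were found by clustering without the 33 genes and named from other markers such as Mustn1, Gucy1a1, Ppp1r14a and Heyl, which were detected in both clusters of the class. Notch3 met the detection rule in only 1 of these clusters, and Ednra was higher in fibroblast-like (31.8 and 28.3 CPM) than in SMC-like cells (17.8 and 16.7 CPM). They numbered 415 in the control (6.51% of kept cells) and 552 in the library labelled knockout (7.63%), with median depths of 8691 and 8734 UMIs. All 16 markers on the smooth muscle list had counts there, with summed levels of 2902 and 2897 CPM. Markers of other cells were present at lower summed levels, namely 576 and 516 CPM for 8 pericyte markers, 230 and 211 CPM for 14 endothelial markers and 461 and 390 CPM for 15 monocyte/macrophage markers. The 12 fibroblast markers, Dcn and Lum among them, summed to 5298 and 5274 CPM. Skeletal muscle markers summed to 8.05 and 5.55 CPM, with Myh1, Myh4 and Myh2 at 0 in both libraries.

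Promoter windows are shown for the 4 genes that hold a CArG box, the element through which serum response factor acts, and for Acta2, the gene with the most UMIs, which holds a looser form of it. RefSeq promoter windows of 300 bases, 250 before to 50 after the start in GRCm38.p6, were found for 29 of the 33 genes. They were missing for Myh11, Tagln, Actg2 and Myocd. The CArG box is 10 bases long, with a core of 6 that are A or T, and reads the same on both strands. It occurred in the windows of 4 of the 29 genes (13.8%), Myl9, Ldb3, Dmd and Myom1, against 488 of 27025 gene symbols in the table (1.81%). A box with 1 G or C in its core was also counted in a second search, which found 8 of 29 (27.6%) against 3050 symbols (11.3%) and added Acta2, Pdlim3, Synm and Cacna1c. The windows lie at chr2:156775214-156775513 (plus strand) for Myl9, chr14:34588632-34588931 (minus) for 1 of the starts of Ldb3, chrX:82948620-82948919 (plus) for 1 of the starts of Dmd, chr17:71019307-71019606 (plus) for Myom1 and chr19:34255324-34255623 (minus) for Acta2. Capitals mark each box found by either search, and each sequence runs 5′ to 3′ on the strand of its gene:
Myl9: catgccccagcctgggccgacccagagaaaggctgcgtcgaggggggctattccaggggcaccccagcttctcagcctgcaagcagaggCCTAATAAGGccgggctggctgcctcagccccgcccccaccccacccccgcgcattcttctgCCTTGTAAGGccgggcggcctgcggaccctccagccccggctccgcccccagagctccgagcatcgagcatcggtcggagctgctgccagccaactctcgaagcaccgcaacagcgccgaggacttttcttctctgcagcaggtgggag
Ldb3: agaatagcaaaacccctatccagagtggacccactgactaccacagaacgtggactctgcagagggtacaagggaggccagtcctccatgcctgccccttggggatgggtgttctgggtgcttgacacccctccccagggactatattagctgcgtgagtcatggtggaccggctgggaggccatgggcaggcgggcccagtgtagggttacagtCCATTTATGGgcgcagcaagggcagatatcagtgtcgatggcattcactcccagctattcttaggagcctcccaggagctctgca
Dmd: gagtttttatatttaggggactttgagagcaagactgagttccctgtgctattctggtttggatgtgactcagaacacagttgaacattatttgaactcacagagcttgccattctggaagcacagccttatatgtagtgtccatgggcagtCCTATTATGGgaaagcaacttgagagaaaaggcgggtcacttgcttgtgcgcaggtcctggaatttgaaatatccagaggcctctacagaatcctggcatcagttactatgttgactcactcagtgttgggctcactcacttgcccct
Myom1: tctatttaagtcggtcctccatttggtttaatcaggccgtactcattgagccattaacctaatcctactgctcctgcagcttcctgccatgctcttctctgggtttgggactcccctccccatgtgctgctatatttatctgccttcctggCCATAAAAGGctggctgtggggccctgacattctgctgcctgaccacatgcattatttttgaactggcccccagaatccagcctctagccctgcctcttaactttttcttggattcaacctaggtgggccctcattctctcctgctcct
Acta2: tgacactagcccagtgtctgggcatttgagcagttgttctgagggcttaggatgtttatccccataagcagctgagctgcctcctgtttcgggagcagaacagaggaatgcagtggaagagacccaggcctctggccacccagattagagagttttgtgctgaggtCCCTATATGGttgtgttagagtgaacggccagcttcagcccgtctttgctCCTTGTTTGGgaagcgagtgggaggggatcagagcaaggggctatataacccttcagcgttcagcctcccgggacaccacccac
In Acta2 both boxes have 1 G or C in the core. A match describes the letters only, and no binding was measured in these cells.

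The 33 genes together gave 223008 UMIs in kept control cells, of which 80.7% lay in SMC-like cells, and 285111 UMIs in the library labelled knockout, of which 84.2% did. Fibroblast-like cells held 9.76% and 7.93%, EC-like cells 2.95% and 2.39%, monocyte/macrophage-like cells 2.81% and 2.48%, and 0.858% and 0.696% lay in neutrophil-like cells. Clusters left unnamed, which enter no class, held 2.03% and 1.43%. Within an SMC-like cell the genes took a median of 4.80% of all UMIs in the control (lowest cell 0.556%, highest 9.48%) and 4.78% in the library labelled knockout (0.369% to 12.8%). A median of 27 of the 33 genes was detected per SMC-like cell in either library, and no SMC-like cell was without them. The actin and thin filament genes supplied 46.9% and 51.5% of these UMIs, and Acta2 alone supplied 20.8% and 22.2%. The levels below are in CPM, one tag per captured molecule, and are not scaled by gene length.

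**Figure D1:**
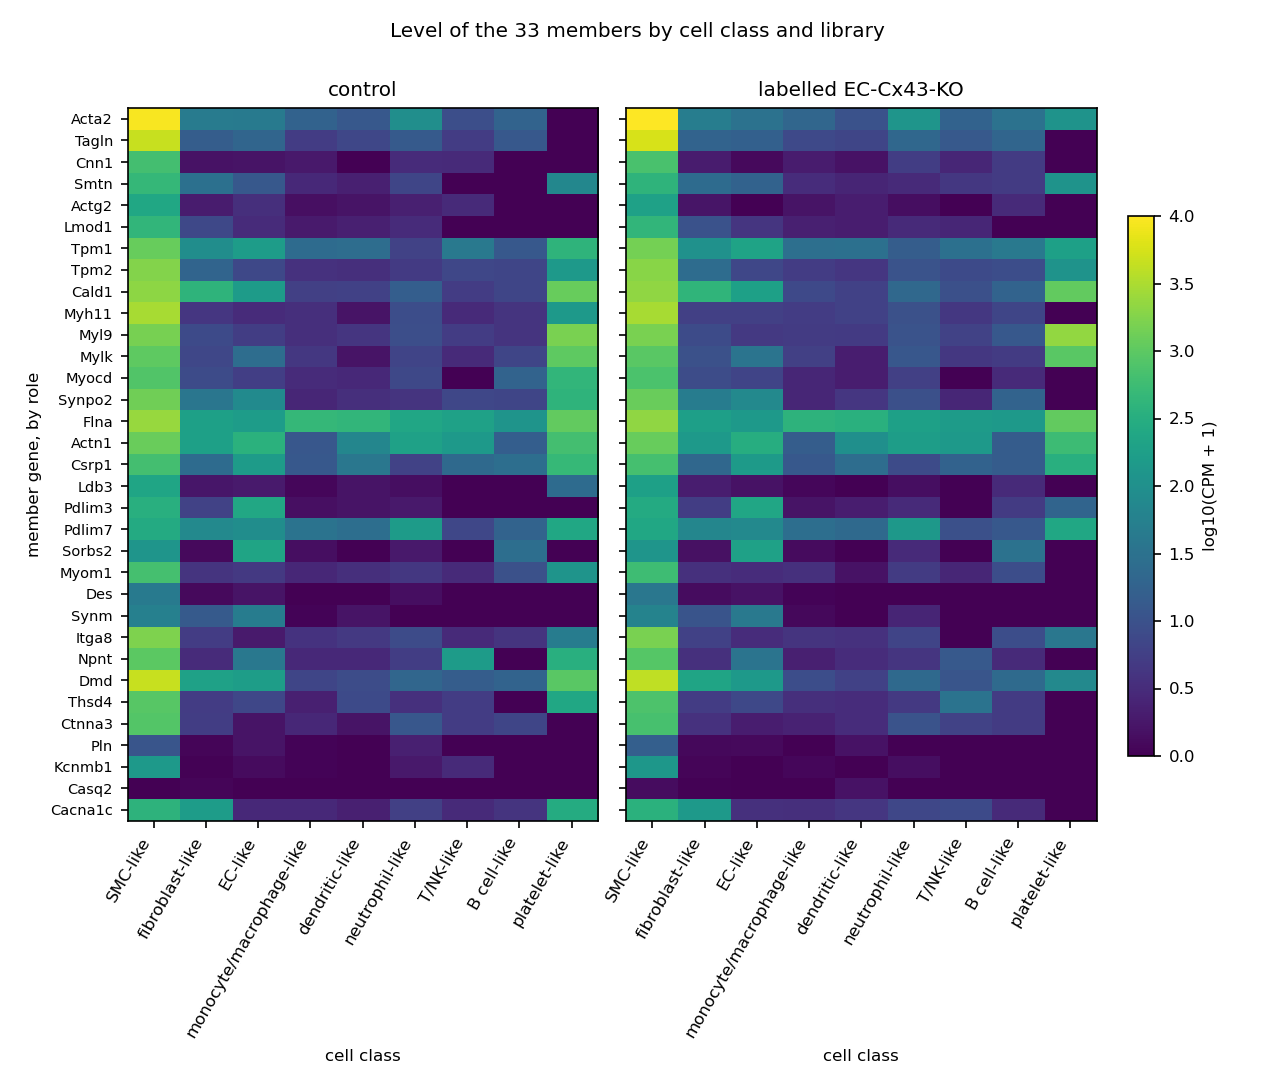
Levels of the 33 genes in the cell classes, as a colour scale of log10(CPM + 1), with the genes in rows by role and the classes in columns, for the control library and the library labelled knockout. Myh11 stood at 3033 and 3024 CPM in SMC-like cells and below 10 CPM in fibroblast-like, EC-like, neutrophil-like and monocyte/macrophage-like cells, while Sorbs2 stood higher in EC-like than in SMC-like cells.

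A gene was counted as restricted to smooth muscle where its SMC-like level was at least 10-fold that of every other named class of at least 50 cells, in both libraries. Of the 32 genes with enough counts, 19 met this, against 0.825% of the 8489 genes with at least 100 SMC-like UMIs. The 33 genes make up 19 of the 70 restricted genes in all. They were Acta2, Tagln, Cnn1, Smtn, Actg2, Lmod1, Tpm2, Myh11, Myl9, Mylk, Myocd, Synpo2, Ldb3, Myom1, Itga8, Dmd, Thsd4, Ctnna3 and Kcnmb1. Kcnmb1 at 15.7- and 22.4-fold, Smtn at 16.0- and 16.8-fold and Synpo2 at 17.2- and 15.6-fold were the nearest inside this limit. The Kcnmb1 folds were set by B cell-like cells, where its 0 UMIs were counted as 3 in either library. SMC-like cells held 98.8% and 99.3% of Kcnmb1 UMIs, against 78.6% and 81.7% for Smtn and 86.9% and 85.4% for Synpo2. Tpm1, at 7.24- and 7.19-fold over EC-like cells, was the nearest outside that no thin class set. Des (4.86- and 6.34-fold) and Pln (1.18- and 2.66-fold) missed the rule against B cell-like cells, again with 0 UMIs counted as 3. Such a miss does not show expression in that class. SMC-like cells held 96.2% and 93.9% of Des and 84.3% and 94.4% of Pln UMIs. Classes come from the same cells, so these counts and folds are descriptions. The 33 genes were also chosen as smooth muscle contractile genes, with earlier results of these data known. A restricted share above that of all genes can come from that choice.

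Among the thin filament genes, Acta2, the smooth muscle alpha-actin, measured 9127 CPM (9035 to 9220) in SMC-like cells of the control and 9856 CPM (9773 to 9940) in those of the library labelled knockout. It lies on chromosome 19 at 34241090 to 34255590 of GRCm38, minus strand, and 96.2% and 97.1% of its kept UMIs were in SMC-like cells. The next class was neutrophil-like, 95.7- and 82.2-fold lower. Tagln, the actin-binding transgelin, stood at 4613 and 5732 CPM, with 97.7% and 98.1% of its UMIs in SMC-like cells, and was 242- and 281-fold above the next class. Cnn1 (calponin, an actin-bound brake on the myosin ATPase) stood at 639 and 701 CPM, and Smtn (smoothelin, bound to contractile actin) at 461 and 397 CPM. In neutrophil-like cells both were at or below 5.96 CPM. The gamma-actin of enteric muscle, Actg2, stood at 243 and 191 CPM and was seen in 247 of 415 and 282 of 552 cells. Lmod1, a leiomodin that nucleates actin filaments, stood at 423 and 432 CPM. Tpm2, a tropomyosin of muscle, at 1815 and 1962 CPM was restricted, whereas its paralog Tpm1 at 1180 and 1474 CPM also had 163 and 205 CPM in EC-like cells. Cald1, the caldesmon gene whose longer form is that of smooth muscle, stood at 2100 and 2139 CPM, yet only 57.0% and 61.1% of its UMIs were in SMC-like cells, since fibroblast-like cells held 396 and 416 CPM. Counts per gene do not separate its forms.

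Myh11, the smooth muscle myosin heavy chain, stood at 3033 CPM (2980 to 3087) and 3024 CPM (2978 to 3071), was detected in 401 of 415 and 537 of 552 SMC-like cells, and had 99.0% and 98.7% of its UMIs there. The regulatory light chain gene Myl9 stood at 1512 and 1558 CPM. Its kinase, Mylk, stood at 1029 and 949 CPM. Platelet-like cells, a class too small for the restriction rule at 27 and 49 cells, also carried Myl9 at 1589 CPM (1232 to 2019) and 2227 CPM (1845 to 2665), in 21 of 27 and 36 of 49 cells. Mylk there stood at 1020 and 955 CPM. Hence platelet-like cells had Myl9 and Mylk at about the SMC-like level, while Acta2 had 0 and 6 and Myh11 6 and 0 UMIs in that class. In the control, 1 platelet-like barcode with 7846 UMIs, against a class median of 1038, held 159 UMIs of 17 of the genes, including all 40 of Dmd, 18 of Myocd and 17 of Synpo2 in that class.

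Myocd, the coactivator of serum response factor, was measured in SMC-like cells at 831 CPM (804 to 860) in the control library and 730 CPM (707 to 753) in the other, from 358 of 415 and 480 of 552 SMC-like cells. It was restricted, with 7.08 and 7.44 CPM in fibroblast-like cells.

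The dense body genes were less uniform. Synpo2, an actin-bundling synaptopodin, stood at 1380 and 1200 CPM in SMC-like cells and was restricted, although EC-like cells held 80.2 and 76.7 CPM. Ldb3, a PDZ and LIM protein of the Z-disc, stood at 222 and 184 CPM and was restricted, as was Myom1, a myomesin known from the sarcomere, at 663 and 582 CPM. By contrast Flna, the filamin that cross-links actin in most cells, had only 47.2% and 52.1% of its UMIs in SMC-like cells, where it stood at 2437 and 2201 CPM. Monocyte/macrophage-like cells held 462 and 388 CPM of it. Actn1, the non-muscle alpha-actinin, stood at 1205 and 1190 CPM in SMC-like and 356 and 314 CPM in EC-like cells. Csrp1, a cysteine-rich LIM protein, stood at 639 and 660 CPM, against 155 and 148 CPM in EC-like cells. Pdlim3, a LIM partner of alpha-actinin, was almost as high in EC-like cells (250 and 234 CPM) as in SMC-like cells (338 and 279 CPM). Pdlim7, another PDZ and LIM protein, stood at 273 and 243 CPM, with 157 and 136 CPM in neutrophil-like cells. Sorbs2, an adaptor of actin-based junctions, was the only one of the 32 genes with a higher level in another class of at least 50 cells in both libraries: EC-like cells held 218 and 195 CPM, against 120 CPM (110 to 132) and 120 CPM (111 to 130) in SMC-like cells.

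Des and Synm, which encode the intermediate filament proteins desmin and synemin, were scarce. Des stood at 43.2 CPM (177 UMIs) and 37.0 CPM (200 UMIs), in only 41 of 415 and 62 of 552 SMC-like cells. Synm stood at 54.6 and 60.1 CPM, and EC-like cells held 47.7 and 40.1 CPM of it.

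Among the membrane and matrix genes, Dmd, which encodes dystrophin, stood at 4532 CPM (4467 to 4598) and 4147 CPM (4093 to 4202). The next class, fibroblast-like, was 23.1- and 19.4-fold lower. Itga8, the alpha-8 integrin of mesenchymal and smooth muscle cells, stood at 1707 and 1553 CPM and was 192- and 200-fold above the next class. Thsd4, a microfibril-associated protein, stood at 928 and 774 CPM, and Ctnna3, the alpha-T-catenin, at 842 and 679 CPM. Npnt, the matrix ligand of the alpha-8 integrin, stood at 981 and 869 CPM but missed the restriction rule at 6.21-fold over T/NK-like cells of the control. There 2 T/NK-like cells held 45 and 25 of the 78 Npnt UMIs. Without those cells Npnt was 24.9- and 25.5-fold above EC-like cells and the count of restricted genes became 20, an alternative chosen after seeing the data.

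The calcium genes were low apart from Cacna1c. Cacna1c, the pore of the L-type calcium channel, stood at 378 and 353 CPM in SMC-like cells and at 164 and 140 CPM in fibroblast-like cells, with 39.2% and 46.8% of its UMIs in SMC-like cells. Kcnmb1, the beta-1 subunit of the calcium-activated potassium channel of smooth muscle, stood at 139 and 131 CPM and was restricted. Pln, phospholamban, which restrains the calcium pump of the sarcoplasmic reticulum, had 43 and 84 UMIs in SMC-like cells, or 10.5 CPM (7.59 to 14.1) and 15.5 CPM (12.4 to 19.2). Casq2, the cardiac calsequestrin, had 0 SMC-like UMIs in the control and 2 in the library labelled knockout. The floor of 3 UMIs would be 0.732 CPM in the control class, and it is not an interval limit.

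Sharing with other cells was counted at 1/4 of the SMC-like level or more in both libraries. Only Pdlim7 and Cacna1c, 2 of 32, reached it in fibroblast-like cells, against 92.4% of all genes tested. At least 3 other classes reached it for 1 gene, Pdlim7, against 83.8% of all genes. EC-like cells reached it for 5 genes, Actn1, Pdlim3, Pdlim7, Synm and Sorbs2, against 90.0% of all genes, by a rule added after the values were seen. Most genes measured in SMC-like cells were thus shared, and most of the contractile genes were not, a difference that can also come from the choice of the genes.

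Fibroblast-like cells divided by cluster. The cluster with the highest Comp level (cartilage oligomeric matrix protein), 259 control cells and 260 of the library labelled knockout, held 14 of the 28 testable genes at 2-fold or more above the other fibroblast-like clusters in both libraries, against 6.79% of all genes tested. These were Acta2, Tagln, Cnn1, Myl9, Lmod1, Synpo2, Tpm2, Myocd, Itga8, Pdlim3, Synm, Dmd, Thsd4 and Ctnna3. Acta2 in it stood at 146 and 180 CPM against 22.98 and 23.98 CPM in the other fibroblast-like clusters, 6.35- and 7.51-fold, with UMIs in 117 and 127 cells. Myocd stood at 31.4 and 30.7 CPM, 16.1- and 9.45-fold. Lmod1, at 23.0 and 35.1 CPM, was 8.46- and 7.51-fold higher there, and Dmd, at 648 and 702 CPM, was 6.39- and 5.59-fold higher than in the others together. Another cluster, number 16, also held Dmd at 514 and 741 CPM and had median mitochondrial shares of 6.28% and 7.33%. Myh11 stood apart from them at 3.63 and 7.01 CPM, 1.10- and 1.61-fold. These levels remained far below those of SMC-like cells, and Cnn1 rested on 2 and 5 UMIs. It passed in the control only because fewer than 3 UMIs count as 3. Its own control levels, 0.806 against 0.509 CPM, were less than 2-fold apart. Single cells carried part of the counts: the highest cell held 47 of 362 and 22 of 411 Acta2 UMIs of the cluster. For Myocd it held 24 of 78 and 9 of 70, and for Pdlim3 28 of 50 and 8 of 40. For Tagln it held 32 of 89 and 18 of 96, and for Itga8 4 of 43 and 15 of 43. Lmod1 was more evenly spread, with 3 of 57 and 5 of 80. With doublets kept, the count fell to 7. The part of doublets that were not removed was not tested.

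**Figure D2:**
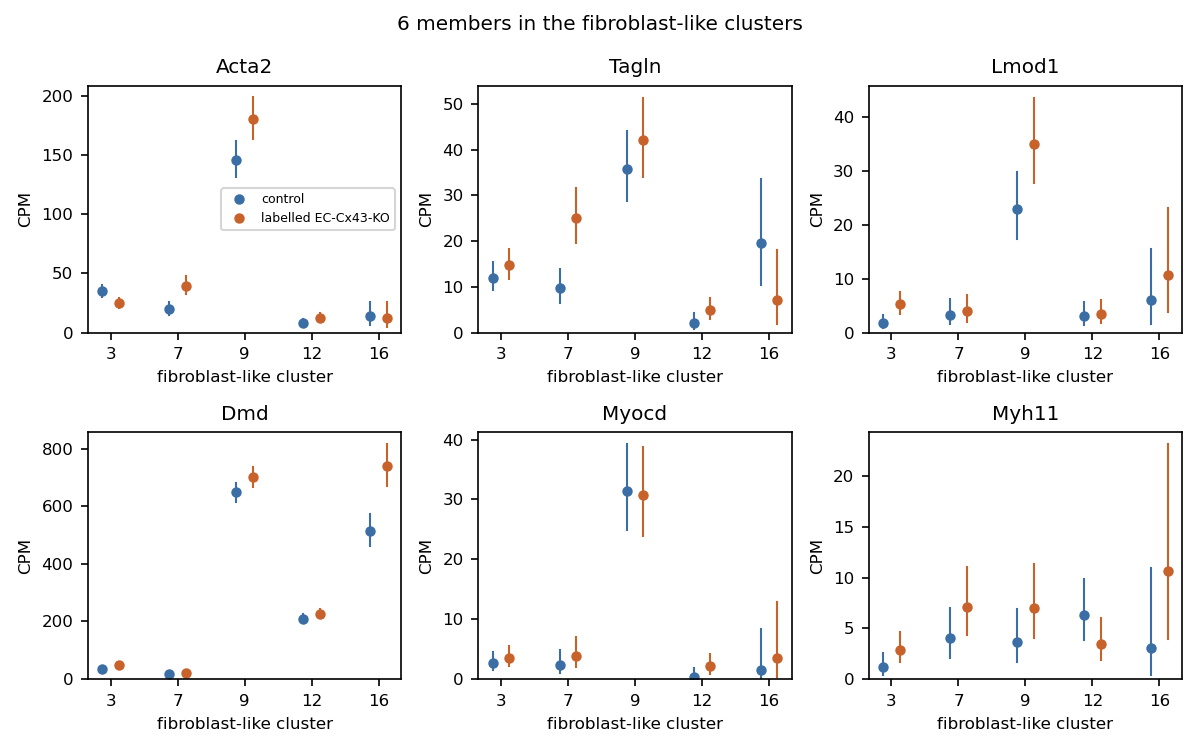
Levels of 6 of the genes in the 5 fibroblast-like clusters, in CPM on linear axes that differ by gene, with exact 95% counting intervals, for the control library and the library labelled knockout; the Comp-high cluster is number 9. Acta2, Tagln, Lmod1 and Myocd were highest in cluster 9 of both libraries, Dmd was high in clusters 9 and 16, and Myh11 stood at 3.63 and 7.01 CPM in cluster 9.

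Leukocyte classes should not make most of these proteins, and their levels were compared with the level of each gene over all kept cells of the library. For 18 of the 19 restricted genes summed, without Acta2, neutrophil-like cells stood at 4.09% (3.60 to 4.64) of the library level in the control and 4.21% (3.76 to 4.70) in the library labelled knockout. Acta2 stood at 10.6% (9.27 to 12.1) and 10.4% (9.27 to 11.7), whereas Tagln stood at 2.86% and 3.07% and Myh11 at 2.64% and 2.53%. Acta2 in neutrophil-like cells amounted to 95.4 and 120 CPM, from 224 and 300 UMIs spread over 165 and 241 cells with no more than 7 and 4 in any cell. In monocyte/macrophage-like cells Acta2 was at 1.91% and 1.71%, beside 1.46% and 1.65% for the other restricted genes. B cell-like cells gave 1.98% and 2.70% for Acta2, against 3.50% and 4.19% for the others.

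The ratio of Acta2 to Tagln UMIs was 1.98 and 1.72 in SMC-like cells. It was 7.47 (5.09 to 11.3) and 5.88 (4.36 to 8.08) in neutrophil-like cells, 4.12 and 2.94 in monocyte/macrophage-like cells, 3.18 and 2.64 in fibroblast-like cells and 2.27 and 1.95 in EC-like cells. On few UMIs it was 1.5 and 1.6 in B cell-like (6 and 16 Acta2 UMIs), 2.00 and 1.43 in T/NK-like and 1.90 and 1.55 in dendritic-like cells, near the SMC-like ratio. What part of Acta2 in other classes is free RNA was not tested. Acta2 per Myh11 UMI was 3.01 and 3.26 in SMC-like cells and 12.4 and 13.6 in neutrophil-like cells. Fas, the death receptor gene that lies next to Acta2 on the opposite strand at 34290666 to 34327772, stood at 290 and 317 CPM in neutrophil-like cells, at 153 and 160 CPM in EC-like cells and at 81.2 and 95.5 CPM in SMC-like cells. On the side of the Acta2 3′ end lies Stambpl1, at 34192229 to 34240333, also on the opposite strand. Stambpl1 stood at 34.1 and 28.0 CPM in neutrophil-like and 10.2 and 15.9 CPM in SMC-like cells. It was higher in B cell-like (83.0 and 29.2 CPM) and T/NK-like cells (77.0 and 53.3 CPM). The annotation places no gene over Acta2 itself, and the part of Fas or Stambpl1 reads in the Acta2 count was not tested. Ctnna3 had the largest neutrophil-like share of the 19, 13.4% (8.77 to 19.7) and 11.9% (7.64 to 17.7), from 26 and 24 UMIs. Smtn was at 10.7% in the control alone.

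**Figure D3:**
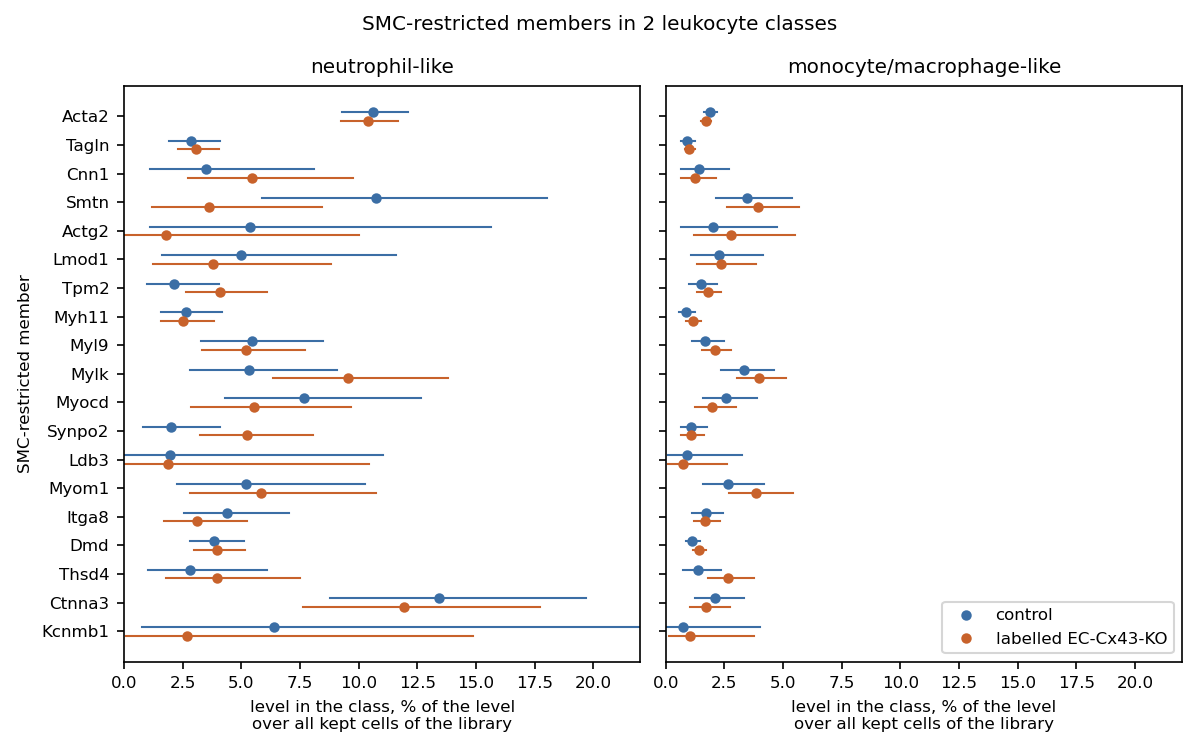
Level of each restricted gene as percent of its level over all kept cells of the library, in 2 leukocyte classes and both libraries, with exact 95% counting intervals (that of Kcnmb1 in control neutrophil-like cells runs past the axis). In neutrophil-like cells Acta2 lies at 10.6% and 10.4% and Ctnna3 at 13.4% and 11.9%, above Tagln at 2.86% and 3.07% and Myh11 at 2.64% and 2.53%.

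After each cell was thinned to 1000 UMIs, 94.6% of 387 control SMC-like cells and 89.7% of 544 in the library labelled knockout held an Acta2 UMI (98.3% and 95.5% unthinned). The thinned shares in neutrophil-like cells were 8.66% and 12.2% (14.99% and 18.7% unthinned), at median depths of 1828 and 1648 UMIs. In monocyte/macrophage-like cells, at median depths of 5998 and 6404 UMIs, they were 1.95% and 1.68% (10.3% and 11.7% unthinned). Thinning left out 28 and 8 SMC-like and 293 and 384 neutrophil-like cells. Myh11 UMIs were found in 84.2% and 83.5% of thinned SMC-like cells and in 0.743% and 1.11% of neutrophil-like cells, and Myocd in 48.8% and 46.5% of SMC-like cells.

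SMC-like cells fell into a pair of clusters in which most of the 33 genes, but not all, stood at different levels. The cluster with the highest level of Sost (sclerostin, a Wnt inhibitor) held 212 control cells and 238 of the library labelled knockout, and the other held 203 and 314. In the Sost-high cluster 23 of the 32 genes were at least 1.5-fold higher in both libraries, against 8.36% of the 8489 genes tested, and none was lower, against 10.2%. The median log2 ratio over the 32 genes was 1.02 in the control and 0.90 in the library labelled knockout, beside -0.05 and -0.03 over all genes. Both clusters come from the same cells that are compared, so no test applies.

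The size of that difference varied by gene. Ctnna3 stood at 1343 against 317 CPM in the control (4.24-fold) and at 1244 against 242 CPM in the library labelled knockout (5.13-fold). Pln was 5.89- and 3.43-fold higher on few UMIs, Thsd4 3.12- and 3.08-fold, Pdlim3 2.99- and 3.73-fold, Actg2 3.20- and 2.48-fold and Ldb3 2.80- and 2.78-fold. Myh11 stood at 4331 against 1673 CPM (2.59-fold) and 4440 against 1930 CPM (2.30-fold). Dmd was 2.44- and 2.58-fold higher, Itga8 2.17- and 2.21-fold, and Myocd, at 1058 against 593 and 1022 against 503 CPM, 1.78- and 2.03-fold. Acta2 differed less, at 11978 against 6139 CPM (1.95-fold) and 12690 against 7665 CPM (1.66-fold). Tagln, 1.58- and 1.32-fold, passed 1.5-fold in the control alone, as did Kcnmb1 and Des. Cald1 (1.33- and 1.24-fold), Actn1 (1.19- and 1.12-fold), Synm (0.812- and 1.02-fold), Sorbs2, Pdlim7 and Cacna1c passed it in neither library. None of the latter 6 was among the genes restricted to SMC-like cells, but 13 of the 32 genes and all but 0.825% of all genes tested were not restricted either. Tagln and Kcnmb1 were restricted and yet did not pass 1.5-fold in both libraries.

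**Figure D4:**
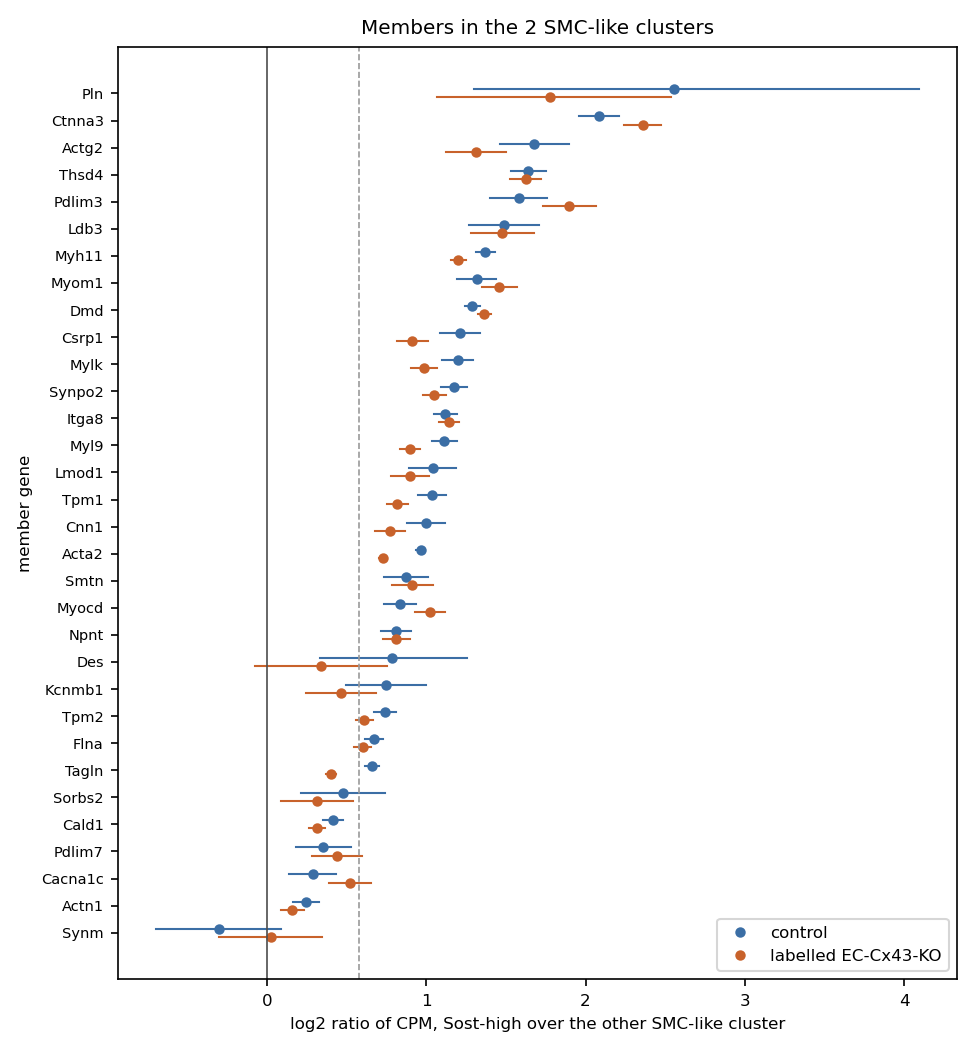
Log2 ratio of CPM in the Sost-high over the other SMC-like cluster for 32 genes, with exact 95% counting intervals, for the control library and the library labelled knockout; the dashed line marks 1.5-fold. Most genes lie to the right of the line in both libraries, Pln and Ctnna3 farthest, and Synm lies near 0.

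Genes beyond the 33 were read from lists. Of 43 other genes of the contractile pathway, 18 were higher in the Sost-high cluster in both libraries and 0 lower, against 8.36% and 10.2% of all genes. The sarcoglycan Sgcd was 2.45- and 2.39-fold higher, whereas the light chain Myl6 (1.48- and 1.41-fold), the focal adhesion gene Lpp (1.41- and 1.40-fold) and the integrin Itgb1 (1.01- and 0.939-fold) were below 1.5-fold. The calcium release channel Ryr2, on this and the cardiac list, was 2.91- and 3.71-fold higher. Of 14 genes of synthetic smooth muscle 9 were lower, Spp1, Lum, Dcn, Fn1, Lgals3, Ly6a, Tnfrsf11b, Thbs1 and Tnc, against 10.2% of all genes, and 1, Vcan, was higher, against 8.36%. Several of these, such as Dcn and Lum, are also fibroblast markers, and what fibroblast RNA adds to them was not tested. Of 10 immediate early genes, which dissociation can induce, 1 was lower (Hspa1b). Of the same 43 pathway genes 5 were restricted to SMC-like cells (Kcnma1, Mrvi1, Hspb6, Nexn and Jph2), against 0.825% of all genes, and 20 were shared with fibroblast-like cells, against 92.4%.

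A finer division of the SMC-like cells gave 6 subclusters. In the largest, with Sost among its leading genes and called Sost-led below (171 and 194 cells), the 33 genes took 5.77% and 5.89% of UMIs. They took 3.14% and 3.73% in a subcluster with Dcn and Lum among its leading genes (92 and 151 cells). In one with Esm1, Tnc and Thbs1 among its leading genes (65 and 78 cells) they took 2.62% and 2.57%. Their median depths were 11028 and 8720 UMIs for the first and 11857 and 12713 for the second, beside 8679 and 9385 in the Sost-led subcluster. Esm1, Tll1 and Hmga2, among the leading genes of the second, also lead a fibroblast-like cluster, and Dcn and Lum are fibroblast markers. The part of fibroblast RNA or doublets in these subclusters was not tested. A shallower subcluster (84 and 90 cells, median depths of 4429 and 6512 UMIs) stood at 5.89% and 6.02%. The remaining pair lay almost wholly in the library labelled knockout: a subcluster led by interferon-induced genes such as Ifit3 and Isg15 (1 and 24 cells) stood at 1.85% and 2.28%, and one whose leading genes include Notch3 (2 and 15 cells) stood at 6.06% and 4.90%. In the latter Des stood at 1153 CPM (614 to 1971) and 198 CPM (126 to 297), against 62.7 and 27.2 CPM in the Sost-led subcluster. Sorbs2 there stood at 621 and 620 CPM against 149 and 139, and Pln at 177 and 155 CPM against 19.1 and 25.6. Dmd went the other way, at 621 and 2153 CPM against 7099 and 6922. The Des, Pln and Sorbs2 counts in the control rest on 2 cells.

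Between the libraries, the SMC-like levels of the programme differed by less than 1.5-fold. None of the 32 genes was 1.5-fold or more higher in the library labelled knockout, against 5.65% of 11982 genes tested, and none was 1.5-fold or more lower, against 4.67%. The median log2 ratio, library labelled knockout over control, was -0.11 over the 32 genes and -0.03 over all genes, and 21 of the 32 lay below 0. The share of all genes below 0 was not counted. Other measures differed between the same cells: Malat1, a nuclear RNA, was higher in the library labelled knockout (33496 CPM) than in the control (26975 CPM), and the median mitochondrial share was 3.14% beside 3.47%. Their part in the ratios was not tested. Ratios ran from -0.35 to 0.57. With the counting error alone, 15 of the 32 intervals lay below 0, against 11.5% of all genes tested, and 6 lay above it, against 9.08%. Genes with many UMIs, such as most of the 32, have narrow intervals that exclude 0 at small ratios. Counting error leaves out the difference between carotid pools of the same kind, which 1 library per group cannot show.

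Of the 6 genes whose interval lay above 0, 5 belong to the actins and thin filament, a role that holds 9 genes. The role did not move as a whole: Actg2 at -0.35 and Smtn at -0.21 had intervals below 0. The intervals of its members Lmod1 and Cald1 included 0. Tpm1 was higher by 0.32 (0.27 to 0.37) on the log2 scale and Tagln by 0.31 (0.29 to 0.34). Cnn1 was higher by 0.13 (0.06 to 0.21), and Acta2 and Tpm2 were each higher by 0.11. Pln, on 43 and 84 UMIs, had the widest interval, 0.57 (0.02 to 1.13). The lowest ratios were those of Actg2 at -0.35 (-0.48 to -0.22), Ctnna3 at -0.31 (-0.38 to -0.24), Pdlim3 at -0.28 (-0.38 to -0.17), Ldb3 at -0.27 (-0.40 to -0.14), Thsd4 at -0.26 (-0.33 to -0.20), Smtn at -0.21 and Synpo2 at -0.20. Myocd stood at -0.19 (-0.25 to -0.12). Myh11 was at -0.00 (-0.04 to 0.03).

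**Figure D5:**
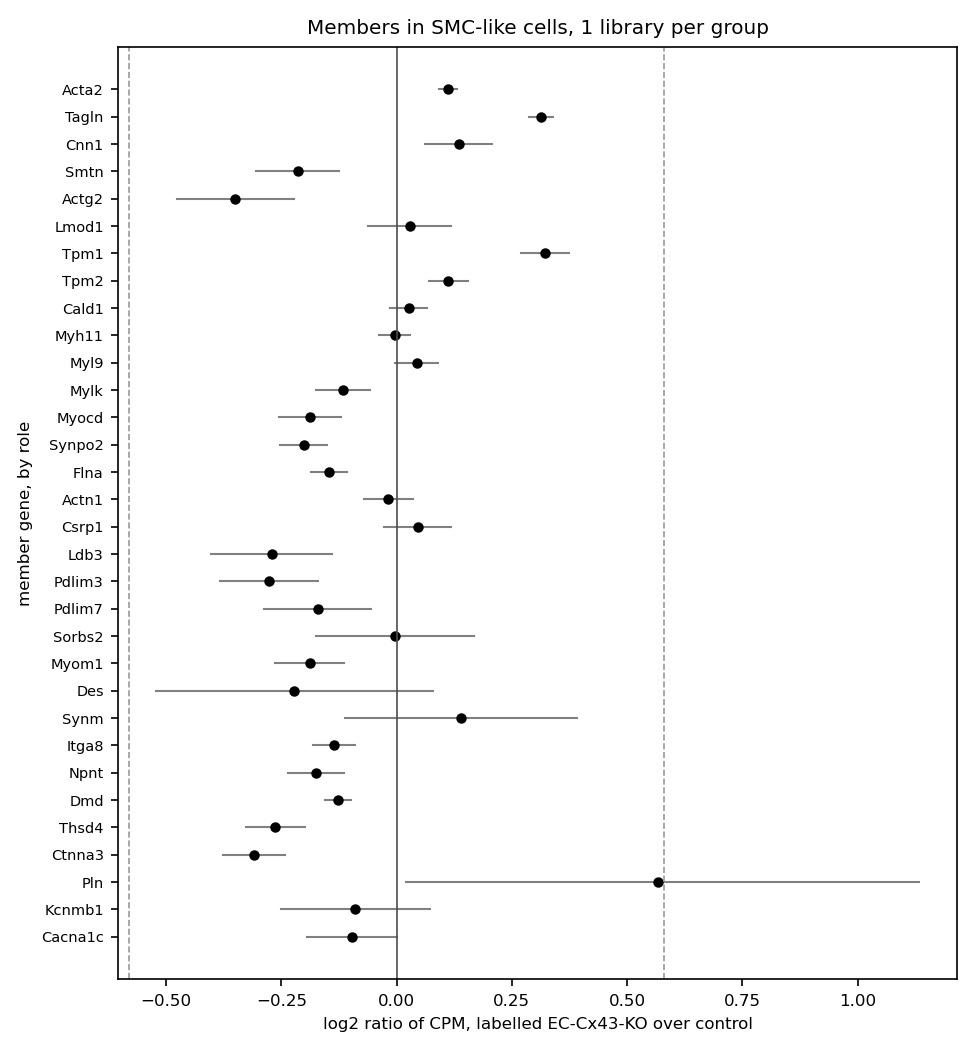
Log2 ratio of CPM in SMC-like cells, library labelled EC-Cx43-KO over control, for 32 genes by role, with exact 95% counting intervals; dashed lines mark 1.5-fold in either direction. All points lie inside the dashed lines, from Actg2 at -0.35 to Pln at 0.57.

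The mix of SMC-like cells also differed between the libraries, so the ratios were taken within each cluster. The Sost-high cluster made up 51.1% of control SMC-like cells and 43.1% of those labelled knockout. Within that cluster 0 genes passed 1.5-fold in either direction, against 6.04% higher and 6.42% lower over all genes, with a median of -0.05 beside -0.02. Within the other cluster 1 gene was higher, Pln at 1.33 (interval -0.0046 to 2.92, 6 and 23 UMIs), against 6.74% of all genes, and 0 were lower, against 7.41%, with a median of 0.03 beside -0.04. Of the 32 genes, 19 lay below 0 within the Sost-high cluster and 15 within the other. Tagln kept its sign within both, at 0.24 in the Sost-high and 0.50 in the other cluster, and so did Tpm1 at 0.31 and 0.53. Myh11 was at 0.04 (-0.0048 to 0.077) within the Sost-high and 0.21 (0.14 to 0.27) within the other cluster. In the same order Acta2 was at 0.08 and 0.32 and Myl9 at 0.04 and 0.26, whereas Myocd was at -0.05 and -0.24. Actg2 was again at -0.35 within the Sost-high and 0.02 within the other cluster. Ctnna3 was at -0.11 and -0.39, and Pdlim3 at -0.08 and -0.39. Leaving out both subclusters found almost only in the library labelled knockout (3 and 39 cells) gave a median of -0.07 with 20 genes below 0, an alternative chosen after seeing the data. Among the 32 genes the ratio also differed by gene span: 9 of 10 genes spanning at least 100 kb lay below 0, with a median of -0.13, against 12 of 22 shorter genes with a median of -0.01. The same split was not made over all genes, so whether it is particular to these genes is not known. The part of gene length in the ratios was not tested.

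In fibroblast-like cells 28 genes had enough counts. Of these, 1 was higher by 1.5-fold or more in the library labelled knockout (Cnn1, 0.84 with an interval of -0.49 to 2.29, 8 and 15 UMIs), against 5.75% of all genes. A further 2 were lower, Actg2 at -0.65 (-1.96 to 0.60) and Ctnna3 at -0.67 (-1.29 to -0.07), against 6.08%. The median was 0.07 beside -0.08 over all genes, but it was -0.11 with doublets kept, -0.057 with free RNA subtracted and -0.038 at a mitochondrial limit of 10%. These calls rest on few UMIs and turned with the processing: Cnn1 was at -0.11 with doublets kept and Ctnna3 at 0.29 as a mean of single-cell values. In EC-like cells, the target of the Cre, 1 of 22 genes was higher (Myh11, 1.16 with an interval of -0.19 to 2.67, 7 and 17 UMIs), against 5.33%, and 1 was lower (Myom1, -0.71 with an interval of -2.21 to 0.70), against 6.39%. Acta2 in EC-like cells stood at 43.3 and 31.3 CPM, a log2 ratio of -0.47 (-0.84 to -0.10).

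On the lists, none of 44 other contractile pathway genes passed 1.5-fold between the libraries in SMC-like cells, against 5.65% of all genes higher and 4.67% lower, with a median of -0.08 beside -0.03. Among 15 synthetic genes 1, the matrix gene Tnc, was higher at 0.86 (0.67 to 1.05), and Mgp, an inhibitor of calcification, stood at -0.54 and elastin, Eln, at -0.38. The intermediate filament gene Vim stood at 0.03 and fibronectin, Fn1, at -0.10. Of the 10 immediate early genes 1, the heat shock gene Hspa1b, passed, at 0.76 (0.59 to 0.93), while Fos stood at 4518 and 4436 CPM, Egr1 at 2252 and 2135, Fosb at 1607 and 1419 and Jun at 1223 and 1233.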

How the data were processed

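Single-cell 3′ libraries of injured mouse carotids, 1 per group, were deposited by the authors as matrices of UMI counts per gene and barcode. Cell Ranger 8.0.1, STAR and mm10 are listed per the submitters' processing notes; the counting strand and the treatment of multi-mapping reads are not given in the sources used here. Reads of near-identical actin genes, and of genes that overlap on opposite strands (Tagln and Pcsk7, Pln and Cep85l, Kcnmb1 and Kcnip1, Synm and Ttc23, Cacna1c and Dcp1b, Dmd and Tsga8, Myom1 and Myl12a, Ctnna3 and Lrrtm3), may therefore be split between them.

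Barcodes were kept from 300 detected genes upward and up to 15% mitochondrial UMIs, and the highest-scoring barcodes by simulated doublets were removed (363 and 476). Cells were clustered on 2000 variable genes without the 33 members, with 30 components and 20 neighbours (Leiden resolution 1.0, leidenalg 0.10.2, igraph 0.11.9, scikit-learn 1.9.0), and clusters were named from at least 3 detected markers that hold no member. No name was given to 1 cluster led by more genes of a second marker list than of its own, or to 3 clusters with a median depth under 1/3 of that of a library and none of their own markers in the lead. These 4 clusters, 1150 and 921 cells with macrophage, endothelial or T cell markers, enter no class. For each class of a library the UMIs of a gene were added up and expressed as CPM. Intervals are exact at 95%: Poisson for levels, conditional binomial for ratios, Clopper-Pearson for shares. Ratios needed 20 UMIs over both libraries, and 1.5-fold counts as a log2 ratio of 0.58. Fewer than 3 UMIs count as 3 in the restriction rule and in ratios between libraries or between clusters. Coordinates come from GENCODE M21. The text names all 33 members and, of each other list, up to 4 genes with the most SMC-like UMIs. It also names genes in counts after their values were seen (Tnc, Hspa1b, Fas, Stambpl1, the genes called on each list). The members and lists were chosen with earlier results of these data known. The scripts were tested on simulated data.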

Additional observations from a re-analysis of the deposited data

How the results depend on the processing

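Of 384 ratios between libraries recomputed for the genes in SMC-like cells over 12 alternatives, 373 kept their sign and 4 passed 1.5-fold. Resolution 0.5, resolution 2.0 and the limit of 100 UMIs per ratio repeated the main values, with a median of -0.11 and 21 genes below 0. Their ratios are among the 384 and say nothing on how stable the values are. The count of genes higher there was 1 instead of 0 with at least 500 genes per cell, a mean of single-cell CPM, median-of-ratios scaling or a mitochondrial limit of 25%. In fibroblast-like cells the higher count of 1 became 0 with at least 100 UMIs per ratio, 2 with at least 500 genes, 5 with free RNA subtracted, 3 with median-of-ratios scaling, with members kept among the clustering genes or with the 25% limit, and 4 at resolution 2.0. The lower count of 2 there became 1 with at least 100 UMIs, free RNA subtracted, median-of-ratios scaling, members kept in clustering or a 10% limit, 0 with at least 500 genes, doublets kept or resolution 2.0, and 4 with single-cell CPM. Reversed were fibroblast-like Cnn1 (-0.11 with doublets kept, -0.075 with free RNA subtracted) and Ctnna3 (0.29 with single-cell CPM). The share of the genes' UMIs in SMC-like cells became 79.6% and 83.4% with doublets kept, 80.5% in the control at the 10% limit and 84.4% in the library labelled knockout at the 25% limit. Neutrophil-like Acta2 in the control became 12.4%, 12.8% and 12.3%, and the other restricted genes 5.27%, 6.03% and 5.70%, with at least 500 genes, doublets kept and the 25% limit. At 1/2 of the SMC-like level 0 genes were shared with fibroblast-like cells and 0 were broad. With doublets kept, 7 genes instead of 14 were higher in the Comp-high cluster. The share of SMC-like cells with an Acta2 UMI became 91.4% and 86.6% at the 25% limit and 97.3% and 96.1% when thinned to 2000 UMIs, and 88.7% in the control at 500. Neutrophil-like shares became 14.7% and 18.0% at 2000 and 5.09% and 5.91% at 500. The cause of these shifts was not tested. The restriction count stayed at 19 in 7 alternatives of cell filters and clustering, and was 15 at 20-fold and 23 at 5-fold. At resolution 0.5 the SMC-like cells formed 1 cluster, so the comparison of clusters has no value there.

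No paired analysis was possible because each group has 1 library and no replicate numbers. Depth limits the low genes: Pln, Des, Synm and Casq2 in SMC-like cells and most of the genes in other classes rest on few UMIs.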
